A study of Mus musculus with 45 samples.

Results

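The genes of cholesterol synthesis and transport were followed in small intestinal tuft cells of lean and obese mice. The list holds 31 genes of the textbook pathway, of the 47729 genes in the tables. It was chosen by name with earlier results of these data known, and it leaves out some enzymes of the pathway. It has 18 enzymes of cholesterol synthesis, 5 regulators of the pathway and 8 genes of sterol uptake, carriage and export. Tuft cells (live EpCAM+CD45+ Siglec-F+ cells per the labels) had been sorted from male C57BL/6J mice that were 5 weeks old at arrival and were housed at 30°C with 4 mice in a cage. The mice received a reference fat diet (RFD, 10% fat) or a high fat diet (HFD, 60% fat), and each of the 45 bulk RNA libraries came from 1 mouse. The STF set holds 11 RFD and 11 HFD libraries from 9 weeks of feeding, and the LTF set holds 11 RFD and 12 HFD libraries. The study fed mice for 9 and for 22 weeks, and LTF was taken as 22 weeks although the labels give 9 weeks for all 45 libraries. Feeding time and library set cannot be told apart.

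Cells build cholesterol from acetyl-CoA. The early enzymes lead through mevalonate to farnesyl pyrophosphate, which also feeds protein prenylation and ubiquinone, and the later enzymes turn squalene into lanosterol and then cholesterol. The transcription factor SREBP2 switches these genes on when membrane sterol is low, after SCAP has carried it to the Golgi, and the INSIG proteins hold SCAP in the endoplasmic reticulum when sterol is plentiful. In the intestine NPC1L1 takes up cholesterol from the lumen, SOAT2 esterifies it, ABCG5 and ABCG8 return sterols to the lumen and ABCA1 passes cholesterol to apolipoprotein A1.

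Promoters were read from RefSeq (GRCm38.p6) to show which members carry letters of the known control elements of this pathway. An entry was found for 25 of the 31 genes, and none for Fdft1, Soat2, Fdps, Stard4, Sqle and Npc1. The element TCACNCCAC, searched on both strands from 250 bases before to 50 bases after the start, was present in 1 of the 25 members, Hmgcs1, and in 1.44% of 27025 genes. The box CCAAT, also searched on both strands, was present in 22 of the 25 members (88%), in 14 of 15 synthesis genes (93.3%), and in 41.1% of all genes. With the bases before the start alone it was present in 21 of 25 members (84%) against 37.5% of all genes. All genes here are the 27025 with an entry, whether or not they were expressed in these libraries. No set matched to the members in expression was counted. A match of these letters is a description and not a site shown to be bound. Only these exact letters in this window were searched, so a member without a match was not shown to lack a control element. The matches of the 2 motifs did not overlap. A stretch of 3 genes is shown in the direction of transcription, with matches in capitals (ATTGG is CCAAT on the other strand). Hmgcs1 is shown as the member with TCACNCCAC (here TCACCCCAC, first base 137 bases before the start), and Insig1 and Npc1l1 because the results below turn on them, chosen after their values were seen. The stretch of Insig1 ends 50 bases before the RefSeq start, where an exon of another annotated transcript begins.
Hmgcs1, plus strand, chr13:119690101-119690350: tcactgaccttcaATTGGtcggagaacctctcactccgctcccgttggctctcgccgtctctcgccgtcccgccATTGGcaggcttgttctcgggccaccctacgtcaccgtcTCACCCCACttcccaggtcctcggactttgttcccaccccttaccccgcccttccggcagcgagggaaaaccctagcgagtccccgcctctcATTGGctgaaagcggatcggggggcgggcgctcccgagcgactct
Insig1, plus strand, chr5:28071162-28071362: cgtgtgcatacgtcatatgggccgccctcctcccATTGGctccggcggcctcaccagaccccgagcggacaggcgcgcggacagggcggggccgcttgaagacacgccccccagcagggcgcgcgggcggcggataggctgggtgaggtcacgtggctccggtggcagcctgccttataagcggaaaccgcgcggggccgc
Npc1l1, minus strand, chr11:6230246-6230495: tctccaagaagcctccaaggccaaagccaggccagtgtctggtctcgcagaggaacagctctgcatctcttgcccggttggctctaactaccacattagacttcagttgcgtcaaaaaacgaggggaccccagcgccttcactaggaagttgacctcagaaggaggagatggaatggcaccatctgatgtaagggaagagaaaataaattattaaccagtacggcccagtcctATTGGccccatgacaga

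Each library held 189340 to 4690213 reads on genes, and 2 libraries, both in the STF set, had under 500000. Expression is given as CPM, the reads of a gene scaled to a common library total after TMM normalization within a set. All 11 tuft markers examined were read in every group, but the libraries differed in how many reads they held of the markers of other epithelial cells. The summed CPM of the tuft markers was 2967 to 22485 (median 13478) on RFD and 306 to 20878 (median 5822) on HFD in the STF set, and 3893 to 26398 (median 17793) and 1099 to 23075 (median 13549) in the LTF set. The sum of 6 Paneth cell markers was 51.9 to 104144 CPM (median 2595) on RFD and 104 to 586273 CPM (median 26091) on HFD in the STF set, and 80 to 41234 CPM (median 1645) and 29.7 to 139051 CPM (median 11396) in the LTF set. The library with 586273 CPM of Paneth markers was that of STF HFD mouse 80, which also had the 306 CPM of tuft markers. LTF RFD mouse 3 stood apart in another way, with 8609 genes read at least once, the fewest of the 45 libraries, and no read of 10 members. Fewer cells of a type and less RNA per cell cannot be told apart in such bulk samples. No tuft, enterocyte, goblet, Paneth, M cell, T cell or B cell marker that was tested passed an adjusted p under 0.1 in either set, while 2 of 5 stem cell markers (Olfm4 and Smoc2, both higher on HFD) passed in the STF set and 1 of 6 enteroendocrine markers (Cck, lower on HFD) in the LTF set (Benjamini-Hochberg after the edgeR fit). Only 2 of 4 M cell, 6 of 7 T cell and 1 of 3 B cell markers had enough reads to be tested.

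Whether HFD was accompanied by a change of cholesterol genes in these cells was asked in each set. No member passed an adjusted p under 0.1 in the STF set (Benjamini-Hochberg over 14020 genes after the quasi-likelihood fit of edgeR, all 31 members among them), where 466 genes did (3.32%), or 69 without STF HFD mouse 80. No member passed in the LTF set either, where 111 genes did (0.792%), or 241 without LTF RFD mouse 3. At an unadjusted p under 0.05 there were 5 members in the STF set (16.1%, against 18% of all genes): Stard4 and Insig1 with higher values on HFD, and Npc1l1, Fdps and Fdft1 with lower ones. Among the LTF libraries there were 4 (12.9%, against 10.3% of all genes): Idi1 and Srebf1 with higher values, and Npc1l1 and Abcg5 with lower ones. With all libraries the share of members at that level was thus near that of all genes in both sets, and Npc1l1 was the member found in both. Neither point held once single libraries were left out. Both libraries were left out in turn, a choice made after seeing the data. Without STF HFD mouse 80, the members at an unadjusted p under 0.05 were Stard4 and Insig1, without Npc1l1. That is 2 of 31, a smaller share than the 14.3% of all genes. Without LTF RFD mouse 3 there were 9 such members of 31, a larger share than the 13.8% of all genes. They were Idi1, Srebf1, Npc1l1 and Abcg5 as before, with Mvk, Pmvk, Scap, Insig1 and Stard4 beside them. None of these 9 had an adjusted p under 0.1, and their adjusted p (Benjamini-Hochberg after the edgeR fit) ranged from 0.198 to 0.36. In no member did all HFD libraries lie on one side of all RFD libraries, and such separation was found for 3 genes in the STF set (0.0214%) and 2 in the LTF set (0.0143%).

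The differences were also small in size. The median log2 fold change (HFD over RFD) of the 18 synthesis genes was -0.13 in the STF set and -0.04 in the LTF set, beside -0.05 and -0.03 for all genes. For the 8 uptake, carriage and export genes it was 0.08 and -0.12, and for the 5 regulators -0.02 and 0.30. The sign for the transport genes was not stable, at 0.07 in the LTF set without LTF RFD mouse 3, and in the STF set at -0.01 without the 2 libraries of low totals and -0.02 with limma on log2(TPM + 1). Nor was that for the synthesis genes, at 0.08 (STF) and 0.15 (LTF) with the tuft marker level as a covariate. In the LTF set it was also 0.13 with limma and 0.01 with no filter on low counts. The median size of the log2 fold change regardless of sign was 0.32 for the members and 0.51 for all genes in the STF set, and 0.27 and 0.35 in the LTF set. The median SE was also smaller for the members, at 0.30 against 0.50 in the STF set and 0.26 against 0.42 in the LTF set. How far the smaller size reflects lower noise in well expressed genes was not tested. The 95% interval of the fold change lay within 2-fold in either direction for 19 of 31 members in the STF set and for 23 in the LTF set. A difference of 2-fold or more was therefore outside the interval for those genes, and it was not for Abca1, Mvk, Pmvk, Tm7sf2, Sc5d and Insig1, whose intervals reached past it in both sets. The fold change had the same sign in both sets for 22 of 31 members (71%) and for 70.4% of all genes.

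**Figure D1:**
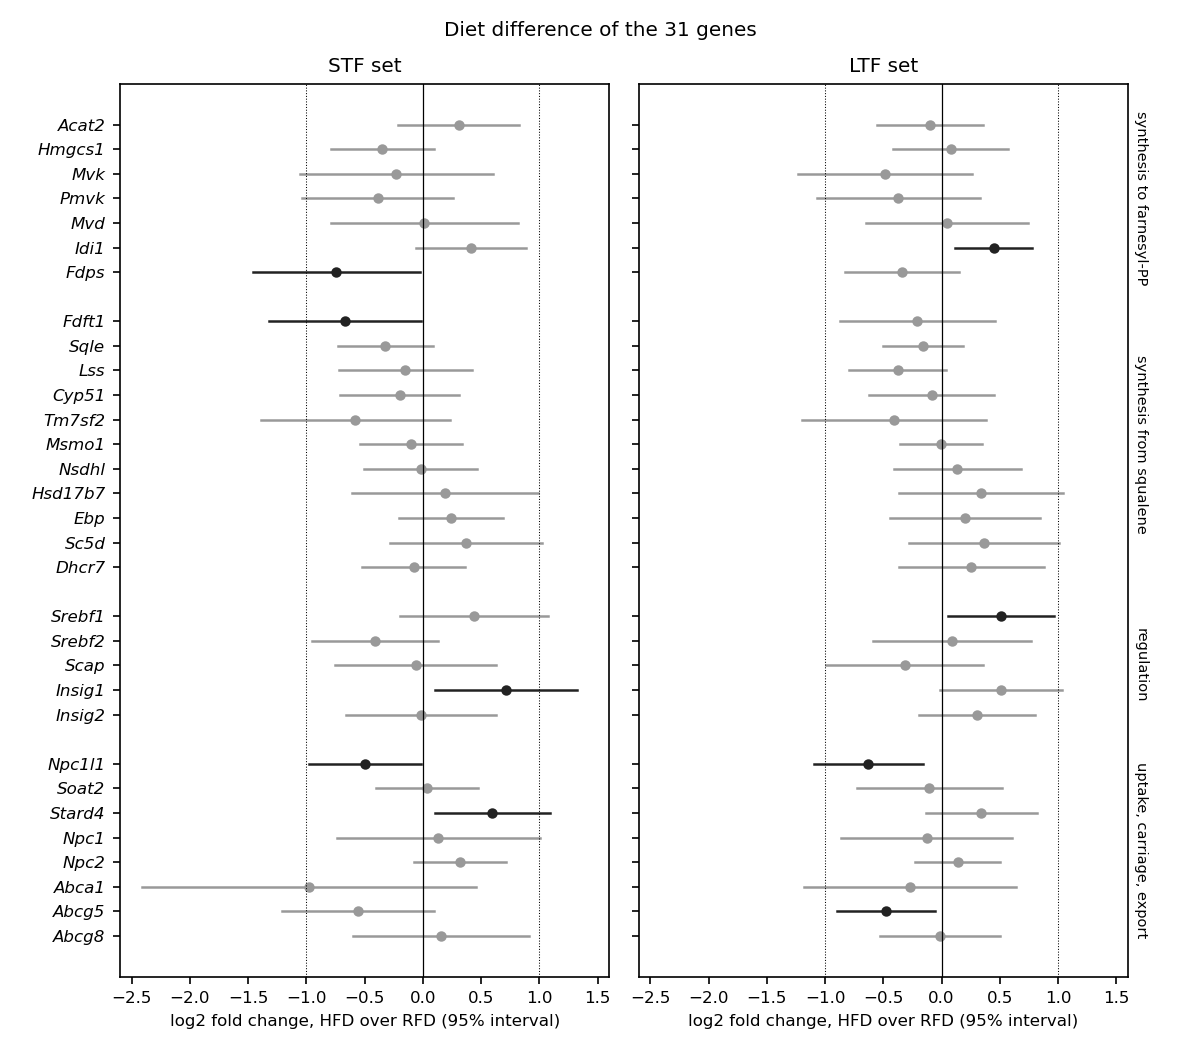
Log2 fold change (HFD over RFD, x axis) of each of the 31 members with its 95% interval in the STF set (left) and the LTF set (right), grouped by role, with dotted lines at 2-fold. Black marks the members with an unadjusted p under 0.05, 5 in the STF set and 4 in the LTF set, none of which passed the adjusted threshold.

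Levels were compared between genes per transcript length, as TPM. The members were well expressed, with a median over members that lay above 78.4% of the genes tested on RFD in the STF set and above 80.1% in the LTF set. Fdps, which makes farnesyl pyrophosphate, had the highest median TPM of the members in all 4 groups. Its TPM was 49.9 to 573 (median 361) on RFD and 16.2 to 648 (median 149) on HFD in the STF set. After longer feeding (LTF) it was 223 to 712 (median 506) on RFD and 66 to 586 (median 384) on HFD. The next genes, Fdft1, Msmo1 and Hmgcs1, had median TPM of 56.1, 54.4 and 48.4 on RFD in the STF set, and their ranges over libraries overlapped widely. At the other end, Npc1, which moves cholesterol out of lysosomes, had median TPM of 1.55 to 3.25 over the 4 groups, and Abca1 had 0.15 to 0.92. The STF and LTF tables were made separately, so levels were not compared between the sets.

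**Figure D2:**
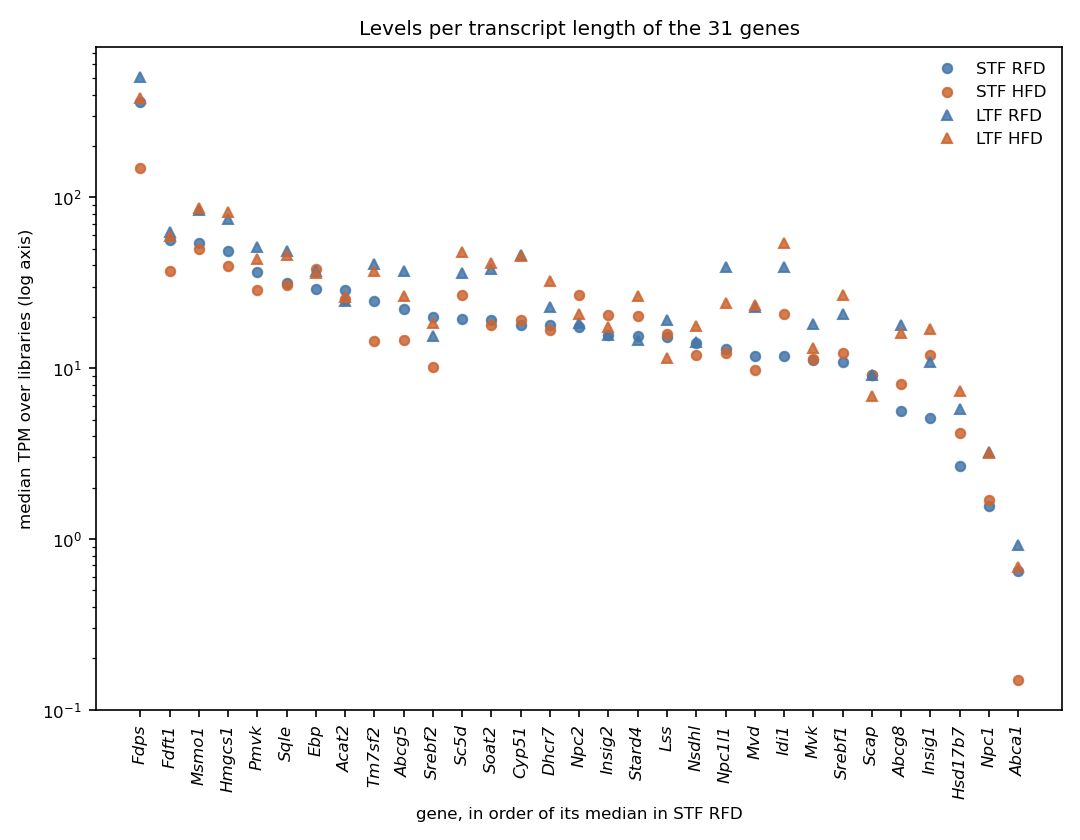
Median TPM over libraries (y axis, log scale) of each member in each of the 4 groups, in the order of its median on RFD in the STF set. Fdps had the highest median in every group (149 to 506) and Abca1 the lowest (0.15 to 0.92).

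Of the 7 early enzymes, 3 had a positive and 4 a negative fold change in the STF set, with a median of -0.23, and the same counts with a median of -0.10 in the LTF set. Hmgcs1 condenses acetoacetyl-CoA and acetyl-CoA to HMG-CoA. On RFD in the STF set it had 127 to 355 CPM (median 193), and on HFD 90.3 to 248 CPM (median 127). Although the groups overlapped, 6 of 11 HFD libraries lay below every RFD library. HFD over RFD gave a log2 fold change of -0.35 ± 0.22 (SE, edgeR adjusted p = 0.412, 95% interval -0.79 to 0.10), and -0.09 with the level of the tuft markers as a covariate. In the LTF set Hmgcs1 had 45.8 to 501 CPM (median 282) on RFD and 158 to 453 CPM (median 274) on HFD, with 6 of 12 HFD libraries on each side of the RFD median. The diets differed there by a log2 fold change of 0.08 ± 0.24 (SE, edgeR adjusted p = 0.949), and it was -0.04 without LTF RFD mouse 3, which had the lowest value, and 0.33 with the tuft marker covariate.

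Idi1 and Fdps act at the last steps before the branch to sterols. Fdps (GRCm38 chr3:89093588-89101959, minus strand) had 95.5 to 558 CPM (median 396) on RFD and 81.6 to 676 CPM (median 166) on HFD in the STF set. All but 1 of the 11 HFD libraries were below the RFD median, and the remaining one was the highest of both groups. On the log2 scale HFD differed from RFD by -0.75 ± 0.35 (SE, edgeR adjusted p = 0.262). Most mouse numbers fall into 3 series (1 to 8, multiples of 10, and 21 to 64). STF RFD mouse 84 and LTF HFD mouse 65 are in none and are left out of all values by number series. Each series holds 3 or 4 libraries per diet in a set. Within the series, the differences of Fdps in mean log2(CPM + 1) were -1.52, -0.32 and -0.16. With the tuft marker level as a covariate the log2 fold change of Fdps was -0.10 in the STF set and -0.05 in the LTF set. At 22 weeks Fdps had 217 to 866 CPM (median 589) on RFD and 129 to 725 CPM (median 441) on HFD, with 11 of 12 HFD libraries below the RFD median. This gave a log2 fold change of -0.34 ± 0.24 (SE, edgeR adjusted p = 0.662). The counts of Fdps were not whole in 33 of 45 libraries, so reads had been divided between it and similar sequences and its values are uncertain.

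Idi1 (GRCm38 chr13:8885501-8892451, plus strand), which isomerizes isopentenyl pyrophosphate, had the second smallest p of the members in the LTF set. It had 91.2 to 163 CPM (median 120) on RFD and 105 to 248 CPM (median 166) on HFD. The groups overlapped in their lower part, and 7 of 12 HFD libraries were above every RFD library. Its log2 fold change was 0.45 ± 0.16 (SE, edgeR adjusted p = 0.297, 95% interval 0.11 to 0.78). Within the number series the differences were -0.03, 0.70 and 0.62. In the STF set Idi1 had 31.8 to 90.7 CPM (median 43.4) on RFD and 32 to 113 CPM (median 66.5) on HFD, with 10 of 11 HFD libraries above the RFD median. The log2 fold change was 0.41 ± 0.23 (SE, edgeR adjusted p = 0.357), and the number series, one of them in the other direction, gave 0.61, -0.22 and 1.13. Counts of Idi1 were not whole in 18 of 45 libraries. The other early genes were Acat2, which joins 2 acetyl-CoA, the kinases Mvk and Pmvk, and the decarboxylase Mvd. Their log2 fold changes lay between -0.39 (Pmvk) and 0.31 (Acat2) in the STF set and between -0.49 (Mvk) and 0.05 (Mvd) in the LTF set, with adjusted p of 0.54 to 0.994 and 0.693 to 0.979 (edgeR). For Pmvk, 9 of 11 and 11 of 12 HFD libraries were below the RFD median. Counts of Acat2 were not whole in 32 libraries.

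**Figure D3:**
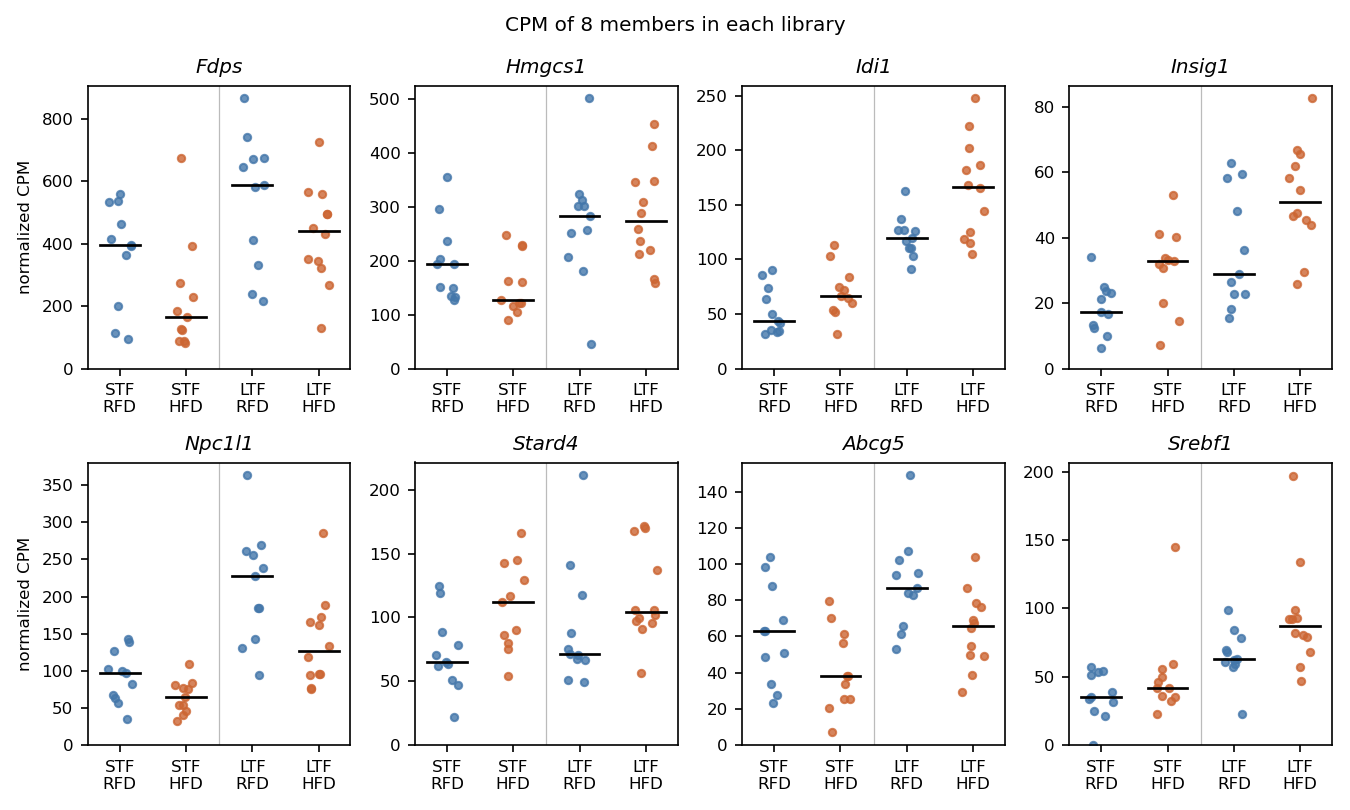
CPM (y axis, from 0) of 8 members in each library, blue for RFD and orange for HFD, with a line at the median of each group and a different scale for each gene. The diets overlapped for every gene, and most HFD libraries lay below the RFD median for Npc1l1 (10 of 11 and 11 of 12) and above it for Insig1 (9 of 11 and 11 of 12).

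Of the 11 genes from squalene on, 3 had a positive and 8 a negative fold change in the STF set (median -0.10), and 5 and 6 in the LTF set (median 0.00). Fdft1, squalene synthase, commits farnesyl pyrophosphate to sterols. It had 38.2 to 287 CPM (median 177) on RFD and 29.1 to 246 CPM (median 106) on HFD in the STF set, with 10 of 11 HFD libraries below the RFD median. HFD over RFD gave a log2 fold change of -0.67 ± 0.32 (SE, edgeR adjusted p = 0.266), and by number series HFD differed by -1.13, -0.09 and -0.20. With the tuft marker covariate it was -0.05. Among the LTF libraries its log2 fold change was -0.21 (SE 0.33, and 0.13 with the tuft marker covariate), and 10 of 12 HFD libraries were below the RFD median. Counts of Fdft1 were not whole in 31 of 45 libraries.

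Sqle encodes squalene epoxidase, a slow step of the pathway. It had 63.7 to 144 CPM (median 102) on RFD and 35 to 121 CPM (median 85) on HFD in the STF set. The groups overlapped, with 3 of 11 HFD libraries below every RFD library. The diets differed there by a log2 fold change of -0.32 ± 0.20 (SE, edgeR adjusted p = 0.411, 95% interval -0.73 to 0.09), and by -0.21 with the tuft marker covariate and -0.50 with limma. After longer feeding (LTF) Sqle had 84.7 to 204 CPM (median 153) on RFD and 80.5 to 212 CPM (median 126) on HFD, ranges that were nearly the same. On the log2 scale HFD differed from RFD by -0.16 ± 0.17 (SE, edgeR adjusted p = 0.805, 95% interval -0.50 to 0.18). The remaining 9 genes were the cyclase Lss, the demethylase Cyp51, the reductases Tm7sf2, Hsd17b7 and Dhcr7, the C4 demethylation genes Msmo1 and Nsdhl, the isomerase Ebp and the desaturase Sc5d. Counts of Tm7sf2 were not whole in 10 libraries. The log2 fold changes of the 9 genes ranged from -0.58 (Tm7sf2) to 0.37 (Sc5d) in the STF set and from -0.41 (Tm7sf2) to 0.36 (Sc5d) in the LTF set. Adjusted p ranged from 0.455 to 0.982 and from 0.539 to 0.997 (edgeR). Msmo1 was nearly the same on both diets in the LTF set, with a log2 fold change of 0.00 and a 95% interval from -0.35 to 0.35. All 12 HFD libraries of Sc5d were above the RFD median in the LTF set, between 73.3 and 110 CPM, while the RFD libraries reached from 0 to 104 CPM. The summed CPM of all 18 synthesis genes was 732 to 2017 (median 1693) on RFD and 699 to 2258 (median 1144) on HFD in the STF set, and 1053 to 3181 (median 2313) and 1302 to 2740 (median 2046) in the LTF set.

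Among the regulators, Insig1 had the smallest p in the STF set. It is itself a target of SREBP2 and its protein holds SCAP back. Insig1 (GRCm38 chr5:28071363-28078662, plus strand) had 6.37 to 34 CPM (median 17.3) on RFD and 7.21 to 53 CPM (median 32.7) on HFD. The groups overlapped, while 9 of 11 HFD libraries were above the RFD median and 3 above every RFD library. The log2 fold change was 0.71 ± 0.30 (SE, edgeR adjusted p = 0.2, 95% interval 0.10 to 1.32), and by number series HFD differed by 0.90, 0.55 and 0.63. In the LTF set Insig1 had 15.3 to 62.8 CPM (median 29) on RFD and 25.8 to 82.5 CPM (median 51) on HFD, with 11 of 12 HFD libraries above the RFD median. This gave a log2 fold change of 0.51 ± 0.26 (SE, edgeR adjusted p = 0.496, 95% interval -0.01 to 1.04), and by number series HFD differed by 0.26, 0.21 and 1.14.

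Srebf2, the gene of the main activator of the pathway, had 25.5 to 157 CPM (median 99.4) on RFD and 37.8 to 102 CPM (median 80) on HFD in the STF set. The HFD libraries lay inside the range of the RFD libraries. HFD over RFD gave a log2 fold change of -0.41 ± 0.26 (SE, edgeR adjusted p = 0.422), and it was 0.06 with the tuft marker covariate and -0.21 with the number series as batch. Among the LTF libraries Srebf2 had 0 to 163 CPM (median 89) on RFD and 54.8 to 138 CPM (median 95.3) on HFD, again inside the RFD range. Its log2 fold change was 0.09 ± 0.33 (SE, edgeR adjusted p = 0.956), and it was -0.05 without LTF RFD mouse 3, the library at 0, and 0.38 with limma.

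Srebf1 encodes SREBP1, which acts mainly on genes of fatty acid synthesis. After longer feeding (LTF) it had 22.5 to 98.8 CPM (median 63) on RFD and 47.1 to 197 CPM (median 87) on HFD. Of the HFD libraries, 10 of 12 were above the RFD median and 3 above every RFD library. On the log2 scale HFD differed from RFD by 0.51 ± 0.22 (SE, edgeR adjusted p = 0.436), and by number series HFD differed by 0.93, -0.25 and 0.59. With limma on log2(TPM + 1) it was 0.06. Srebf1 in the STF set had 0 to 57 CPM (median 35.2) on RFD and 22.7 to 145 CPM (median 41.7) on HFD, with a log2 fold change of 0.44 ± 0.31 (SE, edgeR adjusted p = 0.469), and 0.80 with the tuft marker covariate. The escort gene Scap had log2 fold changes of -0.06 (SE 0.34) and -0.32 (SE 0.33) in the STF and LTF sets. Insig2, whose protein acts like that of Insig1, had -0.02 (SE 0.31) and 0.30 (SE 0.24). Counts of Scap were not whole in 6 libraries.

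Npc1l1 (GRCm38 chr11:6211013-6230143, minus strand), the uptake transporter of the intestinal brush border, had lower median values on HFD in both sets. In the LTF set it had 94.6 to 364 CPM (median 228) on RFD and 75.5 to 286 CPM (median 126) on HFD. The groups overlapped, but 11 of 12 HFD libraries were below the RFD median and 3 were below every RFD library. The log2 fold change was -0.63 ± 0.23 (SE, edgeR adjusted p = 0.292, 95% interval -1.09 to -0.16), a ratio of 0.647. Within the number series the differences were -0.62, -1.05 and -0.65, and with the series as batch Npc1l1 was called (-0.81, edgeR adjusted p = 0.0606). Both leave out LTF HFD mouse 65, whose number is in no series. At 286 CPM it was the highest HFD library and the only one above the RFD median. In the STF set Npc1l1 had 35.4 to 143 CPM (median 97.3) on RFD and 32.3 to 109 CPM (median 64.1) on HFD, with 10 of 11 HFD libraries below the RFD median. The diets differed there by a log2 fold change of -0.50 ± 0.24 (SE, edgeR adjusted p = 0.261), and by number series HFD differed by 0.14, -0.86 and -0.39. It was -0.30 with the tuft marker covariate.

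Stard4 carries cholesterol between membranes and is also a sterol-regulated gene. It had 22.1 to 125 CPM (median 65.1) on RFD and 54.2 to 166 CPM (median 112) on HFD in the STF set. All but 1 of the 11 HFD libraries were above the RFD median, and 4 were above every RFD library. HFD over RFD gave a log2 fold change of 0.60 ± 0.24 (SE, edgeR adjusted p = 0.186, the smallest of the members), and by number series HFD differed by 1.05, 0.12 and 0.51. It was 0.37 with the tuft marker covariate and 0.36 with limma on log2(TPM + 1). Among the LTF libraries Stard4 had 49.4 to 212 CPM (median 71.7) on RFD and 56.1 to 172 CPM (median 104) on HFD, with 11 of 12 HFD libraries above the RFD median. This gave a log2 fold change of 0.34 ± 0.23 (SE, edgeR adjusted p = 0.653), which became 0.54 without LTF RFD mouse 3, 0.22 with the tuft marker covariate and 0.60 with limma.

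The export genes differed in the sign of their fold change in the STF set. Abcg5 and Abcg8 encode the subunits of 1 transporter. Abcg5 had 52.8 to 149 CPM (median 87) on RFD and 29.2 to 104 CPM (median 66) on HFD in the LTF set, with 11 of 12 HFD libraries below the RFD median and 4 below every RFD library. Its log2 fold change was -0.48 ± 0.21 (SE, edgeR adjusted p = 0.42), and by number series HFD differed by -0.58, -0.77 and -0.29. In the STF set Abcg5 had 23.4 to 104 CPM (median 62.8) on RFD and 7.02 to 79.4 CPM (median 37.9) on HFD, with a log2 fold change of -0.56 ± 0.32 (SE, edgeR adjusted p = 0.367) and 9 of 11 HFD libraries below the RFD median. One number series of the STF set went the other way (0.25, -1.05 and -1.34). Abcg8 had log2 fold changes of 0.16 (SE 0.37) in the STF set and -0.02 (SE 0.25) in the LTF set, and its HFD libraries lay about evenly on both sides of the RFD median (7 of 11 and 6 of 12 above). Whether the pair differed in its response was not tested.

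Abca1 had the lowest levels of the members. It had 0.36 to 14.6 CPM (median 6.99) on RFD and 0 to 12.4 CPM (median 1.98) on HFD in the STF set, where 2 HFD libraries, of mice 62 and 63, had no read. Both belong to 1 number series, in which the difference was -3.62, against 0.66 and -0.46 in the others. On the log2 scale HFD differed from RFD by -0.98 ± 0.70 (SE, edgeR adjusted p = 0.481), with a 95% interval from -2.41 to 0.46, and -0.35 with limma on log2(TPM + 1). After longer feeding (LTF) Abca1 had 1.7 to 46.7 CPM (median 11.5) on RFD and 2.02 to 25.8 CPM (median 8.42) on HFD. The diets differed there by a log2 fold change of -0.27 ± 0.45 (SE, edgeR adjusted p = 0.888, 95% interval -1.18 to 0.64), and 0.15 without LTF RFD mouse 3. The other transport genes were Soat2, with log2 fold changes of 0.04 and -0.11 in the STF and LTF sets, and the lysosomal pair Npc1 (0.13 and -0.13) and Npc2 (0.32 and 0.14). Adjusted p for these 3 genes was between 0.39 and 0.955 in the STF set and between 0.842 and 0.946 in the LTF set. For Npc2, 10 of 11 HFD libraries in the STF set were above the RFD median and 5 were above every RFD library. The summed CPM of the 8 genes was 225 to 520 (median 400) on RFD and 305 to 549 (median 438) on HFD in the STF set, and 391 to 1150 (median 666) and 337 to 949 (median 551) in the LTF set.

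The sums of the synthesis and of the transport genes went with different cell markers from library to library, but many single genes did not share this. The log2 of the summed CPM of the 18 synthesis genes and that of the 11 tuft markers had Spearman's rho = 0.81 (Pearson's r = 0.84) over the 22 STF libraries and rho = 0.85 (r = 0.78) over the 23 LTF libraries. Without the 2 libraries farthest from the median tuft level r was 0.83 and 0.86. Within the diets, rho was 0.49 on RFD and 0.84 on HFD in the STF set, and 0.90 and 0.92 in the LTF set. Within the number series rho was 0.93, 0.79 and 0.07 in the STF set and 0.81, 0.60 and 0.31 in the LTF set. It was lowest in the series 21 to 64 in both sets. Each of these values rests on 6 to 8 libraries, so it is imprecise. The tuft markers had negative fold changes in 11 of 11 genes in the STF set (median -1.003) and in 10 of 11 in the LTF set (median -0.44), none past the adjusted threshold. With their level as a covariate the median log2 fold change of the synthesis genes was 0.08 and 0.15. With 9 enterocyte markers the synthesis sum had rho = 0.03 and -0.29, and with 6 Paneth markers -0.74 and -0.47. The Paneth rho was -0.84 on RFD and -0.75 on HFD in the STF set, and -0.26 and -0.66 in the LTF set. By number series it was -0.75, 0.36 and -0.43 in the STF set and -0.29, 0.03 and -0.88 in the LTF set. All sums of 1 library share its total, so reads taken by one cell type lower the CPM of the others. The values are a description of these libraries, chosen after seeing the data, and were given no p.

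The sum of the 8 transport genes instead went with the enterocyte markers, with rho = 0.90 (r = 0.84) over the STF libraries and 0.80 (r = 0.86) over the LTF libraries. Within the diets rho was 0.88 and 0.96 in the STF set and 0.83 and 0.89 in the LTF set, and within the number series it was 0.61, 0.93 and 0.89 and then 0.57, 0.83 and 0.52. With the tuft markers rho was -0.32 and -0.35. A few abundant genes weigh most in the synthesis sum, with Fdps at 24.2%, Hmgcs1 at 12.9% and Fdft1 at 11% of it on RFD in the STF set. Of the 18 synthesis genes, 7 in the STF set and 8 in the LTF set had rho of at least 0.5 with the tuft markers, and the median over the 18 was 0.35 and 0.29. Of the 8 transport genes, 2 and 6 had rho of at least 0.5 with the enterocyte markers (median 0.39 and 0.64). Fdps, Fdft1, Tm7sf2 and Pmvk had rho = 0.92, 0.92, 0.84 and 0.73 with the tuft markers in the STF set and 0.96, 0.88, 0.91 and 0.82 in the LTF set. The lowest were Idi1, Sc5d, Acat2, Hsd17b7 and Dhcr7, with -0.17, -0.17, -0.45, 0.00 and -0.05 in the STF set and 0.05, -0.13, -0.21, 0.11 and -0.24 in the LTF set. Stard4 went the other way, with -0.70 and -0.92, and so did Insig1, with -0.42 and -0.57. Abcg5 and Abcg8 had rho = 0.72 and 0.69 with the enterocyte markers in the STF set and 0.62 and 0.66 in the LTF set, while Npc2 had 0.30 and -0.33. Summed enterocyte markers were 605 to 2206 CPM (median 1210) on RFD and 500 to 1762 CPM (median 1132) on HFD in the STF set, and 798 to 6007 CPM (median 2584) and 1436 to 4815 CPM (median 2406) in the LTF set. The part of cell composition in the diet differences of single members was not tested beyond the 2 marker covariates.

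**Figure D4:**
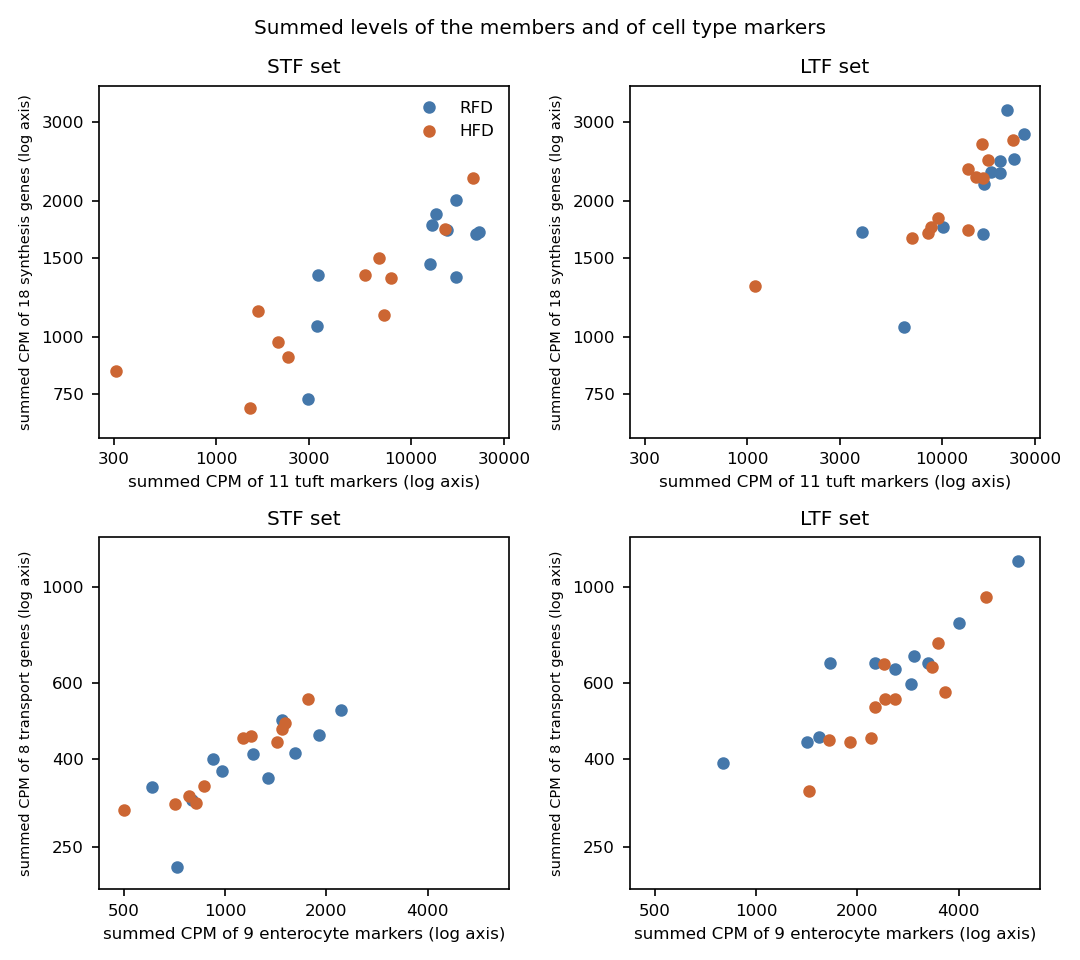
Summed CPM of the 18 synthesis genes against that of 11 tuft markers (top) and of the 8 transport genes against that of 9 enterocyte markers (bottom), all on log axes, with 1 point per library, blue for RFD and orange for HFD. Both sums were higher where the matching markers were higher (rho = 0.81 and 0.85 for synthesis, 0.90 and 0.80 for transport, in the STF and LTF sets).

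The members varied less between mice of 1 group than genes in general. The median coefficient of variation of their CPM was 44.6% on RFD and 39.7% on HFD in the STF set, against 70% and 66% for all genes tested. In the LTF set it was 42.3% and 31.5%, against 61.6% and 56%. Members had more reads than most genes, and genes with more reads have less counting error, which was not separated here.

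Of 28 other sterol and isoprenoid genes, 26 could be tested, and 3 were called in the STF set (against 3.32% of all genes), 2 higher and 1 lower on HFD. None of the 26 was called without STF HFD mouse 80, where the edgeR adjusted p of these 3 was 0.152 to 0.17, nor with the tuft marker covariate or limma. Pdss1, which builds the side chain of ubiquinone from the product of Fdps, had 5.3 to 79.2 CPM (median 23.9) on RFD and 29.6 to 111 CPM (median 69.9) on HFD. This gave a log2 fold change of 1.24 ± 0.35 (SE, edgeR adjusted p = 0.0757), and 11 of 11 HFD libraries were above the RFD median. Coq2, which attaches that side chain, had a log2 fold change of -1.07 ± 0.33 (SE, edgeR adjusted p = 0.0963), with 11 of 11 HFD libraries below the RFD median. Tmem97, a sterol-binding membrane protein, had 1.04 ± 0.31 (SE, edgeR adjusted p = 0.0847). Among the LTF libraries none of the 26 genes was called, and the log2 fold changes of Pdss1, Coq2 and Tmem97 there were 0.69, -0.50 and 0.46. The 2 with the smallest p in that set were Lipa, the lysosomal lipase of cholesteryl esters, with a log2 fold change of 1.35 ± 0.36 (SE, edgeR adjusted p = 0.102), and Nr1h2, the sterol receptor LXR beta, with -0.63 ± 0.19 (SE, edgeR adjusted p = 0.169). All 12 HFD libraries of Nr1h2 were below the RFD median. Lipa was called in the LTF set by DESeq2, which also called Nr1h2, and by edgeR without LTF RFD mouse 3. It was called by edgeR with DESeq2 size factors, the newer quasi-likelihood form, no filter and the enterocyte covariate as well. It was not called with limma, the tuft marker covariate, the number series as batch or one fit over both sets.

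Whether the diet difference of a member differed between the sets was tested as an interaction over all 45 libraries. No member and none of the 14020 genes (0%) passed an adjusted p under 0.1 (Benjamini-Hochberg after the edgeR fit), and at an unadjusted p under 0.05 there were 0 members and 451 genes (3.22%). DESeq2 and limma on log2(TPM + 1) called no gene, with 572 and 359 genes at an unadjusted p under 0.05. The smallest p among the members was that of Hmgcs1, with a difference in log2 fold change (LTF minus STF) of 0.49 (SE 0.33, unadjusted p = 0.139 in edgeR). For Npc1l1 the difference was -0.08 (SE 0.34, 95% interval -0.75 to 0.60). A differing response at the 2 times was thus not shown for any member, and the SE allow for differences of this size.

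Some members were called under other tests, each time as 1 or 2 genes. In the STF set DESeq2 called Insig1 (adjusted p = 0.0963), where it called 10.9% of all genes, and edgeR without the filter on low counts called Fdps (adjusted p = 0.088), where it called 5.22%. A rank test written after SAM-seq, the study's own method, called Stard4 and Insig1 (q = 0.0845 and 0.0966), where it called 13.5% of all genes. After longer feeding (LTF) DESeq2 called Idi1 (adjusted p = 0.0927), where it called 2.5%. Npc1l1 was called there with number series entered as batch (log2 fold change -0.81, with 1.32% of all genes called), a fit without LTF HFD mouse 65. With the enterocyte markers as a covariate Npc1l1 was also called (log2 fold change -0.74, edgeR adjusted p = 0.0215, with 0.777% called). Limma on log2(TPM + 1) called no member in either set.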

How the data were processed

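Smart-seq2 libraries of sorted tuft cells were sequenced as read pairs. Per the labels and the submitters' processing notes, the authors removed adapters with cutadapt 1.15, aligned with STAR 2.6.0 to GRCm38 and estimated gene counts with RSEM. The deposited expected counts are unnormalized and precede the authors' filter and their weighting by cell type proportions, and 8.79% of those above 0 are not whole, since RSEM divides shared reads. The deposited TPM values are per transcript length and sum to a fixed total. The deposited FPKM values were not used. In the tables, 24 columns match no sample used here and were left out. Positions are from GENCODE M21 (GRCm38).

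Counts were rounded, and 14020 genes with more than 5 reads in at least 6 of 45 libraries were tested. Diets were compared within each set with edgeR 4.0.16 (TMM, quasi-likelihood test in its legacy form with robust dispersions) in R 4.3.3, at a Benjamini-Hochberg adjusted p under 0.1. Intervals are at 95%. The mouse numbers are not shared by diets within a set. Across sets they mark different mice, and 16 same-numbered pairs had correlations of deviations from -0.38 to 0.38, so they were not treated as pairs. The study ended each feeding period on 3 days, with 1 cage per group a day. Whether the number series follow those days or the cages is not given in the sources used here. A cage held mice of 1 diet, and cage was not modelled. The fits treated each mouse as independent, so SE, intervals and p may be too small if cage mates resemble each other. The study used SAM-seq on weighted counts. The weights were not used here. Alternatives were DESeq2 1.42.0 and its size factors, no filter, limma 3.58.1 on log2(TPM + 1), a SAM-seq style rank test with 20 resamplings and 100 permutations, the number series as a batch, marker covariates, leaving out libraries, and one fit over both sets. Fits and correlations by number series left out STF RFD mouse 84 and LTF HFD mouse 65, whose numbers are in no series. The fits were also run on simulated data, in which the changed genes differed more than any member did here. That run does not show the power to find differences of the members' size.

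Depth was 189340 to 4193097 reads on RFD (median 1625637) and 409023 to 3600000 on HFD (median 1813398) in the STF set, and 829184 to 3476758 (median 1348669) and 661598 to 4690213 (median 1684939) in the LTF set. The members and lists were chosen with earlier results of these data known. Values are given in full for the members with the 4 smallest p in each set and for Hmgcs1, Sqle, Insig1, Srebf2, Npc1l1 and Abca1, and also for Fdft1, added after its values were seen. Of the other sterol genes, those called or else the 2 with the smallest p in a set are named. Some enzymes of the pathway are not reported here.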

Additional observations from a re-analysis of the deposited data

How the results depend on the processing

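The absence of called members held under most alternatives. Members called in the STF set numbered 1 with DESeq2, 1 with no filter and 2 with the SAM-seq style test, and in the LTF set 1 each with DESeq2, the number series as a batch and the enterocyte covariate. The 466 genes called in the STF set became 1534 with DESeq2, 1698 with no filter, 1898 with the SAM-seq style test, 9 with limma on log2(TPM + 1), 13 with the tuft marker covariate and 290 without the 2 libraries of low totals. The 111 genes in the LTF set became 351, 435, 569 and 51 under the first 4 of these, 185 with the number series and 63 with one fit over 45 libraries. Chosen after seeing the data, edgeR's newer quasi-likelihood form called 1606 and 226 genes, and 4 in the interaction, where no filter called 65. Leaving out STF HFD mouse 80 left 69 genes, and leaving out LTF RFD mouse 3 gave 241. Of the calls in the STF set, 60.1% were higher on HFD. The share was 45.3% with one fit over 45 libraries, 46.2% without low totals, 77.8% with limma (7 of 9 genes) and 80.9% with the SAM-seq style test. In the LTF set the share was 55%, against 34% with no filter and 78.4% with limma. Of the 11 named members without Fdft1, the sign reversed for Srebf2 in the STF set with the tuft covariate (0.0581) and, without LTF RFD mouse 3, for Hmgcs1 (-0.0374), Srebf2 (-0.0480) and Abca1 (0.15). Fdft1, added after its values were seen, changed sign in the LTF set with the tuft covariate and is counted among the 20 others. Of the 20 other members, 9 changed sign in the STF set with the tuft covariate, and in the LTF set 6 with it, 6 with limma and 5 without LTF RFD mouse 3, against at most 3 under any other alternative. The causes were not tested. The replicate block could be fitted for the interaction alone, over same-numbered mice of both sets, and called 0 members and 0 genes. In libraries under 500000 reads the genes near 0 rest on few reads. Abca1 rested on few reads beyond those libraries too, with a median of 7 on RFD and 4 on HFD in the STF set. In the LTF set its median was 15 and 16 reads.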
